A study of Homo sapiens with 6 samples.

Results

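Kinesins are motor proteins that walk along microtubules with the energy of ATP. In a dividing cell some of them build the spindle, align and hold chromosomes, and then part the daughter cells at cytokinesis, and their transcripts are made mostly in the last part of the cell cycle. The other kinesins carry vesicles, mitochondria and protein complexes through the cytoplasm or into the cilium, and are made in resting as well as dividing cells. Paclitaxel, the drug of the study, binds and stabilizes the microtubules that all of these motors use as tracks, and cells held in mitosis by it can leave without dividing as polyploid giant cancer cells (PGCCs). The kinesin genes were taken by symbol alone, as KIF with a number and at most 1 letter or as KIFC1, KIFC2 or KIFC3, leaving out antisense genes and pseudogenes. This rule found 42 of the 59008 gene symbols in the table. Of these, 13 were listed as dividing-cell kinesins, with 9 of the spindle and 4 of cytokinesis, and the other 29 as motors of transport, of the cilium or of other or less clear role.

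The RNA came from Hey and SKOV3, established human ovarian cancer lines. For each line there were untreated parental cells, PGCCs that recovered for 3 days after, per the labels, 16 h in 500 nM paclitaxel, and daughter cells that recovered for 30 days after the same exposure and whose titles call them clone 1. Both treatment labels give 3 days for PGCCs, whereas the SKOV3 PGCC title reads day 7, so the age of those cells is uncertain, and the study's own text allows a slightly longer exposure than the labels. Each of the 6 groups was 1 library, so no value has a replicate error and no test was possible within a line.

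Expression was given as TPM (transcripts per 1000000), which is scaled by transcript length and by library, so that levels of different genes may be set side by side. Within a line, a difference was taken as a difference of log2(TPM + 1), which understates the change of genes with low TPM. A gene was called higher or lower when it differed by 1 or more on this scale, that is 2-fold. Genes whose TPM averaged 1 or more over the 6 libraries are called measured here. There were 14988 of them, and 32 kinesin genes were among them, 12 dividing-cell kinesins and 20 others. TPM keeps no read counts, so the number of reads behind each value is unknown.

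Between 19920 and 25370 genes had a TPM above 0 in a library, and mitochondrial transcripts took from 2.64% (Hey parental cells) to 14.8% (SKOV3 daughter cells) of the summed TPM, with 12.3% in Hey PGCCs. Of the markers checked, KRT7, KRT8, KRT18, PAX8 and ERBB2 were above 8 TPM in all 6 libraries, while WT1 reached at most 4.10 TPM and MUC16 1.59 TPM. EPCAM was at 0.957, 1.43 and 0.369 TPM in Hey parental cells, PGCCs and daughter cells and at 68.8, 43.6 and 8.15 TPM in SKOV3. KRT19 was at 2.47, 3.60 and 0 TPM in Hey and at 292, 711 and 80.2 TPM in SKOV3, so both markers were lowest in the daughter cells of each line. The 7 blood and endothelial markers summed to at most 1.17 TPM in any library, with CD3E and HBB listed at 0 in all 6. The 6 fibroblast markers summed to between 0.263 and 3.56 TPM in the Hey libraries and to between 12.6 and 28.2 TPM in the SKOV3 libraries.

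Many genes of mitosis carry 2 short promoter elements, a CCAAT box and, near the start of transcription, a cell cycle element with the letters TTTGAA or TTTAAA. These letters were searched on both strands in the RefSeq promoter windows (GRCh38.p14), which run from 250 bases before to 50 bases after each start. A window was found for 34 of the 42 kinesin genes. The 250 bases before the start are shown for the 4 dividing-cell kinesins with the largest mean decrease in PGCCs, followed by the most abundant other kinesins, KIF5B and KIF1C, for contrast. Only genes with 1 window and with no exon of a protein-coding gene in these bases were considered. This left out KIF15, KIF23, KIF18A, KIF2C and KIF4A, whose mean decreases were larger than that of KIFC1. Capitals mark the letters searched, in either orientation, so that CCAAT on the opposite strand reads ATTGG and TTTGAA reads TTCAAA. Each sequence is given 5′ to 3′ on the strand of its gene.
KIF11, chr10:92592880-92593129, plus strand: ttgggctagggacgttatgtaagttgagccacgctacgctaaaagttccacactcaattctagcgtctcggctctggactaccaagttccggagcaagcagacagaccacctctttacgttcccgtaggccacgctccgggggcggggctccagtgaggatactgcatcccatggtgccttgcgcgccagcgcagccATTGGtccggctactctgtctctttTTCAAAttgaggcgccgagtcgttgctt
KIF20B, chr10:89701340-89701589, plus strand: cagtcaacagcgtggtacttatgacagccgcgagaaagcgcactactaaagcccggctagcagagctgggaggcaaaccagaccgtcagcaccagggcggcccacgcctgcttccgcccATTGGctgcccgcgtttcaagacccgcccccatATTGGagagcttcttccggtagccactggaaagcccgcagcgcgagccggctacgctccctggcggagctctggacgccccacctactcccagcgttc
KIF14, chr1:200620752-200621001, minus strand: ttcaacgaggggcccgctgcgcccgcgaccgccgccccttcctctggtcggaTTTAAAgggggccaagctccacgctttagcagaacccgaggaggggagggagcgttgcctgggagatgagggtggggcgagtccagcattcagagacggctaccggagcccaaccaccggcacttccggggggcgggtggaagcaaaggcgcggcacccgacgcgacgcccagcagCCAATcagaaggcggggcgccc
KIFC1, chr6:33391573-33391822, plus strand: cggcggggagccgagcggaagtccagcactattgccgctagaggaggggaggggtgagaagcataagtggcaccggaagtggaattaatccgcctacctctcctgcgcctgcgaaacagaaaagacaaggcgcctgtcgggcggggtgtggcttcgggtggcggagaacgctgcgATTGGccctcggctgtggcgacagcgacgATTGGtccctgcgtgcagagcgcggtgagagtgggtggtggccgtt
KIF5B, chr10:32056426-32056675, minus strand: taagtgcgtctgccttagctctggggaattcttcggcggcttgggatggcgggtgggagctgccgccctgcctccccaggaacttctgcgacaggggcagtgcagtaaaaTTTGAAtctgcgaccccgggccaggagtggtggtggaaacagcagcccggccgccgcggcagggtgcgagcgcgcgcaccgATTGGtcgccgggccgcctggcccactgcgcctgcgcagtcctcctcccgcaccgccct
KIF1C, chr17:4997700-4997949, plus strand: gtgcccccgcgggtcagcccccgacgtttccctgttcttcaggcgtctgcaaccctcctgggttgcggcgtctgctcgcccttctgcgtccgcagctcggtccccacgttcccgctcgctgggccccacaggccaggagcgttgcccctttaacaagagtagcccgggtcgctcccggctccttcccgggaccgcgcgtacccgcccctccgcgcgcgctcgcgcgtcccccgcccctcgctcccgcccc

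In the window of KIF11 the CCAAT box began 53 bases before the start and TTTGAA 25 bases further on. KIF14 and KIFC1 had the same order, with their nearest CCAAT 22 and 46 bases before the start and TTTGAA just past it, 23 and 50 bases beyond the CCAAT box and thus outside the bases shown. KIF14 also held TTTAAA further upstream, and KIFC1 another CCAAT box. KIF20B held 2 CCAAT boxes in the bases shown and 2 TTTGAA matches after its start. KIF5B held the letters in the reverse order, TTTGAA 140 bases and CCAAT 59 bases before the start, and KIF1C held none of them.

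Over the 14 windows of the 13 dividing-cell kinesins, 11 held CCAAT (78.6%) and 12 held TTTGAA or TTTAAA (85.7%). Among the 29 windows of 21 other kinesins these were 9 (31%) and 2 (6.9%). All 35116 promoters of the RefSeq table held CCAAT in 34.6% and TTTGAA or TTTAAA in 24% of windows. Both elements together stood in 71.4% of the dividing-cell windows, in 3.45% of the other kinesin windows and in 9.27% of all windows. With CCAAT first and the cell cycle letters starting within 50 bases of it, a span chosen after the matches were seen, there were 9 of 14 dividing-cell windows (64.3%), 0 of 29 others and 2.37% of all windows. KIF20A, KIF18A, KIF18B, KIF23, KIF4A and KIF4B were the other genes with this order, at distances of 9 to 35 bases. KIF2C held TTTAAA alone, KIF15 held TTTGAA alone, and KIF22 held CCAAT in 1 of its 2 windows. A match is a run of letters and not a shown binding site, and no 2 matches overlapped in the kinesin windows.

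In Hey PGCCs all 12 measured dividing-cell kinesins were lower than in parental cells, by a median of -2.03 on the log2 scale. Both roles shared in it: the spindle motors summed to 347 TPM in parental cells and 77.2 TPM in PGCCs, and the cytokinesis motors to 163 and 35.3 TPM. Of the 32 measured kinesin genes 13 were lower and 0 higher, where 5.22% of all measured genes were lower and 7.67% higher. The 13th gene was KIF24, and the median of the 20 other kinesins was -0.016, beside 0 for all measured genes. In these bulk samples, fewer dividing cells and less RNA of these genes per cell cannot be told apart.

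In SKOV3 PGCCs the group was less even. Here 4 of the 12 dividing-cell kinesins were lower, KIF11, KIF15, KIF18A and KIF20B, and the median was -0.88. Of the 32 kinesin genes 4 were lower and 3 higher, against 4.96% and 9.94% of all measured genes. The other kinesins had a median of 0.16, and all measured genes 0.017. These 4 dividing-cell kinesins were thus lower in PGCCs of both lines, 33.3% of the 12, where 0.834% of all measured genes (125) were, and 0 kinesins were higher in both. With the trend on GC content and transcript length described further on removed, none of the 4 passed the threshold in SKOV3, and 0 of the 12 were lower in both lines, where 0.319% of all genes with a known GC content (43) were. In each of the 12, the Hey difference lay below the SKOV3 difference; the difference between the lines was not tested.

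**Figure D1:**
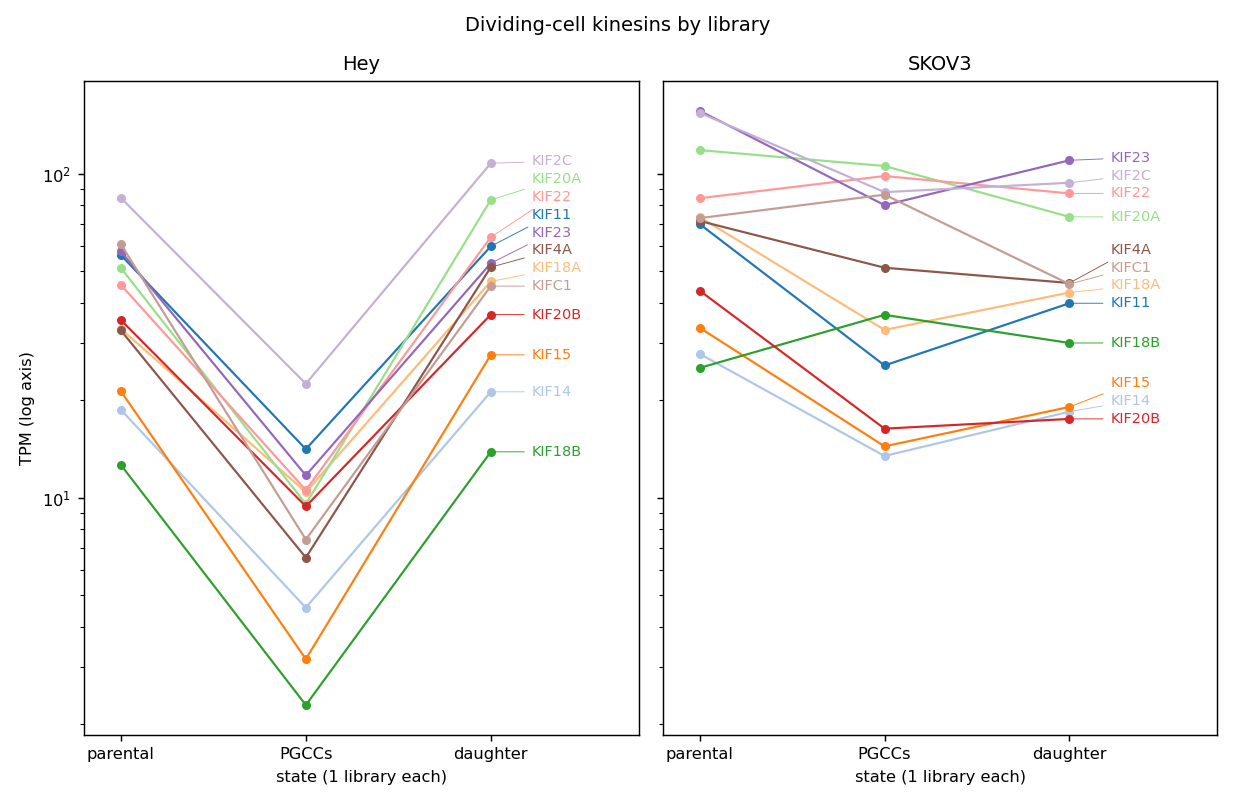
TPM (log axis) of the 12 measured dividing-cell kinesins by state (parental cells, PGCCs, daughter cells), Hey left and SKOV3 right, 1 library per point and 1 line per gene. In Hey every line drops in PGCCs and returns in daughter cells, while in SKOV3 the lines spread, with KIF18B, KIF22 and KIFC1 above their parental level in PGCCs.

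Among the spindle motors, KIF11 pushes the spindle poles apart and is the motor on which a bipolar spindle most depends. In the order parental, PGCC and daughter library, which holds for all values that follow, its TPM was 56.1, 14.1 and 59.7 in Hey and 70.0, 25.6 and 39.9 in SKOV3. Hey PGCCs thus stood 3.97-fold and SKOV3 PGCCs 2.73-fold below their parental cells in TPM (log2 differences of -1.92 and -1.42). The SKOV3 difference was -0.97, within 2-fold, without the GC and length trend. Hey daughter cells were back at the parental level, while SKOV3 daughter cells lay between the other 2 SKOV3 libraries.

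KIF15, which can take over part of the work of KIF11, was at 21.3, 3.18 and 27.6 TPM in Hey and at 33.5, 14.4 and 19.1 TPM in SKOV3. The PGCC libraries were the lowest of each line, with log2 differences from parental cells of -2.42 in Hey and -1.16 in SKOV3. KIF18A, which dampens the movements of chromosomes at the metaphase plate, had 33.3, 10.4 and 46.5 TPM in Hey and 73.6, 33.0 and 43.0 TPM in SKOV3 (differences in PGCCs of -1.59 and -1.13). The order of its libraries was that of KIF15 in both lines. Without the GC and length trend, both lay within 2-fold in SKOV3 PGCCs (-0.80 for KIF15 and -0.47 for KIF18A).

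KIFC1, a minus-end motor that bundles spindle microtubules and clusters extra centrosomes into 2 poles, had the largest decrease of any kinesin in Hey PGCCs and was not called in SKOV3 PGCCs. Its TPM was 60.6, 7.44 and 45.0 in Hey and 73.0, 86.2 and 45.7 in SKOV3. PGCCs of Hey were 8.15-fold below parental cells in TPM (log2 difference -2.87), and those of SKOV3 differed by 0.24, or by -0.32 with the trend on GC content and length removed, both within 2-fold. In SKOV3 the lowest of the 3 libraries was the daughter cells.

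KIF18B is a partner of KIF2C in shortening astral microtubules, and KIF22 pushes chromosome arms towards the spindle equator. Like KIFC1, both were lower in Hey PGCCs and not called in SKOV3 PGCCs. Unlike KIFC1, both were above the parental level in SKOV3 daughter cells. KIF18B was at 12.6, 2.29 and 13.9 TPM in Hey and at 25.2, 36.7 and 30.1 TPM in SKOV3. KIF22 was at 45.4, 10.6 and 63.7 TPM in Hey and at 84.1, 98.5 and 87.0 TPM in SKOV3. Their log2 differences in Hey PGCCs were -2.05 and -2.004, and in SKOV3 PGCCs 0.53 and 0.23, the latter pair below 0 without that trend (-0.155 and -0.37).

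KIF2C, which takes microtubules apart at wrongly attached kinetochores, was the most abundant dividing-cell kinesin in all 3 Hey libraries, at 84.3, 22.5 and 108 TPM. In SKOV3 it was at 154, 87.8 and 93.8 TPM, with a difference in PGCCs of -0.81 against -1.86 in Hey. KIF4A, a chromosome-bound motor that also sets the length of the spindle midzone, had 32.9, 6.54 and 51.5 TPM in Hey and 71.5, 51.3 and 46.0 TPM in SKOV3 (differences of -2.17 and -0.47). Without the GC and length trend the SKOV3 PGCC differences were -0.89 for KIF2C and -0.39 for KIF4A. KIF4B, a nearly identical copy of KIF4A without introns, reached at most 0.0900 TPM, and how reads were split between the pair is uncertain.

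The 4 cytokinesis motors were lower in Hey PGCCs by -1.80 to -2.30 on the log2 scale, and in SKOV3 PGCCs 1 of them, KIF20B, passed the threshold. KIF23, the motor of the centralspindlin complex that gathers the midzone for the cut, was at 57.7, 11.7 and 53.0 TPM in Hey and at 157, 80.0 and 110 TPM in SKOV3 (differences in PGCCs of -2.20 and -0.96). Without the GC and length trend the SKOV3 difference was -0.60. KIF20A, which brings Aurora B to the midzone, was at 51.2, 9.58 and 83.1 TPM in Hey and at 118, 106 and 73.6 TPM in SKOV3 (-2.30 and -0.16). In SKOV3 PGCCs KIF20A was the most abundant kinesin of all, by a small margin over KIF5B (103 TPM).

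KIF20B, which acts late in cytokinesis, had 35.4, 9.42 and 36.8 TPM in Hey and 43.6, 16.4 and 17.5 TPM in SKOV3. It was the 1 dividing-cell kinesin that stayed past the threshold in SKOV3 daughter cells, at -1.36 for PGCCs and -1.27 for daughter cells, each against the parental library. Without the GC and length trend these became -0.74 and -1.35, so the daughter cell call was kept and the PGCC call was not. KIF14, a motor of the midbody, had 18.7, 4.58 and 21.2 TPM in Hey and 27.8, 13.5 and 18.5 TPM in SKOV3. Its difference was -1.82 in Hey PGCCs and -0.99 in SKOV3 PGCCs, just inside the threshold. The SKOV3 value became -0.57 without the GC and length trend.

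**Figure D2:**
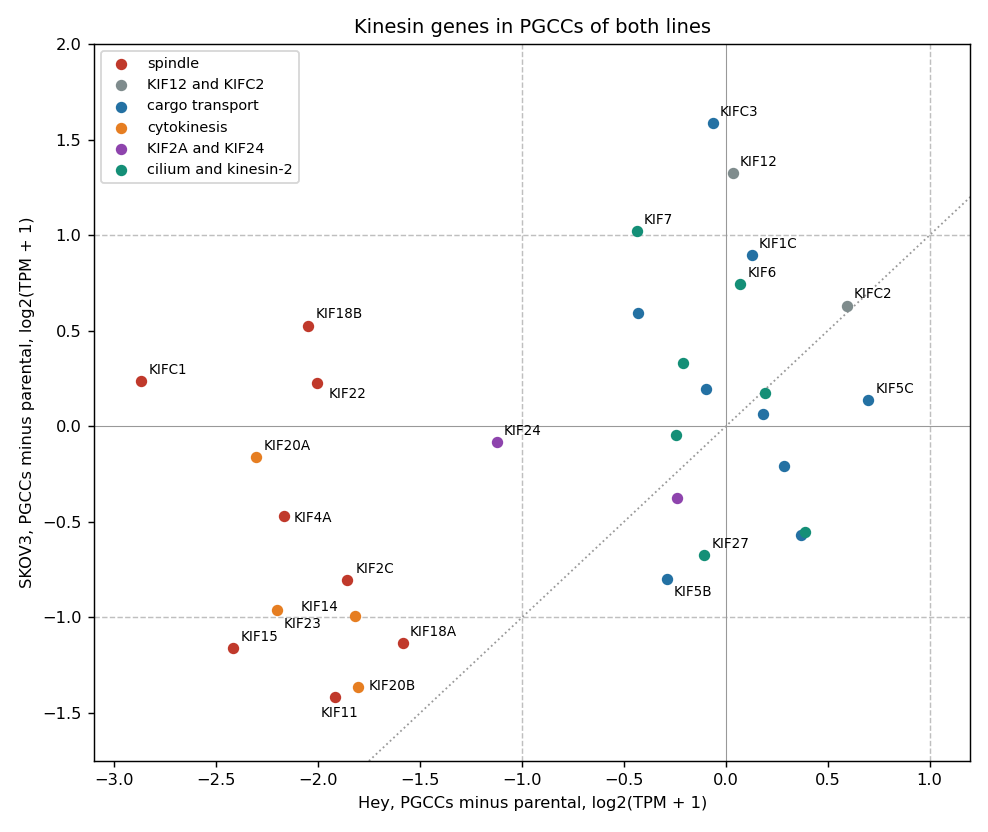
Difference of PGCCs from parental cells in log2(TPM + 1) for the 32 measured kinesin genes, Hey on the horizontal and SKOV3 on the vertical axis, 1 point per gene coloured by role. Dashed lines mark 2-fold and the dotted line equal differences; the 12 spindle and cytokinesis points lie left of the dashed line at -1 and above the dotted line, and 4 of them also lie below -1 in SKOV3.

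Within SKOV3 the size of the PGCC difference went with the base composition of the transcript. The 6 dividing-cell kinesins with 34.31% to 41.64% GC in their canonical GENCODE transcript (KIF20B, KIF18A, KIF14, KIF11, KIF15 and KIF23) had a median of -1.15, and all 4 that passed the threshold were among them. The 6 with 46.22% to 58.37% GC (KIF4A, KIF20A, KIF2C, KIFC1, KIF22 and KIF18B) had a median of 0.032, and 0 passed it. In Hey the same sets of genes had medians of -1.87 and -2.11, and all 12 passed.

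Across the 12 genes the correlation of the SKOV3 PGCC difference with GC content was 0.937 (Pearson) and 0.895 (Spearman), and across the 20 other kinesins 0.87 and 0.845. Over the 13468 measured genes with a known GC content it was 0.661 and 0.721, so the trend was also present in genes other than kinesins. In Hey the same correlations were -0.502 and -0.538 for the 12 and -0.0408 and -0.0447 over all genes. All points share the same pair of libraries, so these values are a description.

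With the trend of all genes on GC content and transcript length removed, all 12 dividing-cell kinesins lay below 0 in SKOV3 PGCCs, from -0.97 (KIF11) to -0.14 (KIF20A) with a median of -0.52, and 0 of them passed 2-fold. In Hey all 12 remained lower, with a median of -1.92. The part that base composition plays in the SKOV3 values was not tested.

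**Figure D3:**
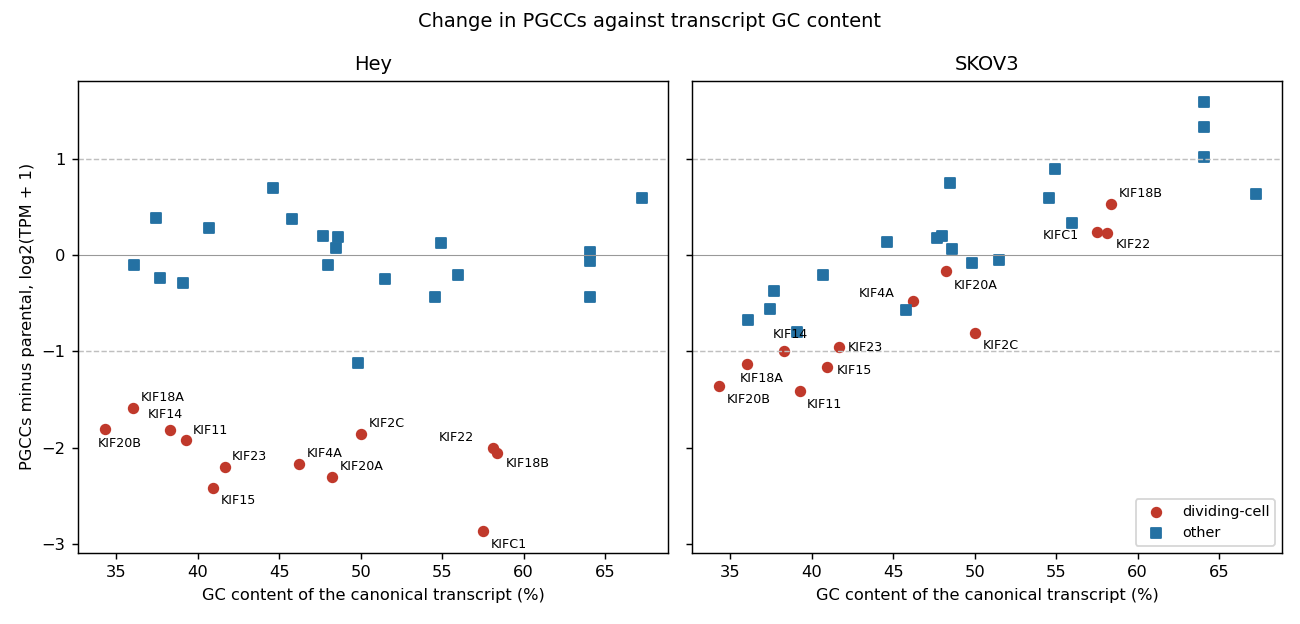
Difference of PGCCs from parental cells in log2(TPM + 1) against the GC content of the canonical transcript in percent, for Hey (left) and SKOV3 (right); circles are the 12 dividing-cell and squares the 20 other measured kinesins. In SKOV3 both kinds climb from left to right, while in Hey the circles lie between -2.87 and -1.59 at any GC content.

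Daughter cells of the 2 lines stood differently to their parental cells. In Hey daughter cells 10 of the 12 dividing-cell kinesins were above the parental value, with a median of 0.26 and none past 2-fold in either direction. KIF11 and KIF20B, the closest to 0 of the 10, lay below 0 with median ratio scaling. Over all 32 kinesin genes 0 were higher and 1 lower, where 6.31% and 3.73% of all measured genes were. In SKOV3 daughter cells 10 of the 12 were below the parental value, with a median of -0.67 and KIF20B past the threshold. Over the 32 genes 4 were higher and 1 lower there, against 15.1% and 6.34% of all measured genes. The median of all measured genes was 0.050 in Hey and 0.15 in SKOV3. KIF18B and KIF22 were the 2 above their parental level in SKOV3 daughter cells (0.25 and 0.05), and all 12 were below it after the trend with GC content and length was removed, by a median of -0.81.

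Against PGCCs, Hey daughter cells were higher in all 12, by a median of 2.19, and SKOV3 daughter cells in none. Among the 32 genes, 13 were higher and 1 lower in Hey (9.95% and 8.13% of all measured genes), and 1 was higher and 0 lower in SKOV3 (14.6% and 9.25%). The SKOV3 median of the 12 was 0.095, with 7 above and 5 below 0; it became -0.029 when libraries were scaled by their median ratio, and -0.11 with the GC and length trend removed. These comparisons share libraries with those above, so they are not further evidence.

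At a lower threshold of 1.5-fold, Hey PGCCs had 2 kinesins higher and 13 lower than parental cells, where 17.1% and 14.4% of all measured genes were. SKOV3 PGCCs had 7 higher and 9 lower (22.9% and 16.3%). Hey daughter cells had 5 higher and 1 lower than parental cells (17.2% and 10.7%) and 14 higher and 4 lower than PGCCs (22% and 17.2%). SKOV3 daughter cells had 8 higher and 9 lower than parental cells (28.1% and 13.6%) and 4 higher and 2 lower than PGCCs (28% and 18.7%).

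In summed TPM the 13 dividing-cell kinesins stood at 510, 112 and 610 in the Hey libraries, in the order used above, and at 932, 649 and 624 in SKOV3. Hey PGCCs thus held 4.53-fold and SKOV3 PGCCs 1.44-fold less than their parental cells. The SKOV3 sum was 1.83-fold the Hey sum in parental cells, 5.77-fold in PGCCs and 1.02-fold in daughter cells. The other 29 kinesins summed to 374, 354 and 393 TPM in Hey and to 527, 512 and 632 TPM in SKOV3. The share of kinesin TPM that came from dividing-cell motors was 57.7%, 24.1% and 60.8% in Hey and 63.9%, 55.9% and 49.7% in SKOV3, so in Hey PGCCs and in SKOV3 daughter cells the other motors made up the larger part.

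**Figure D4:**
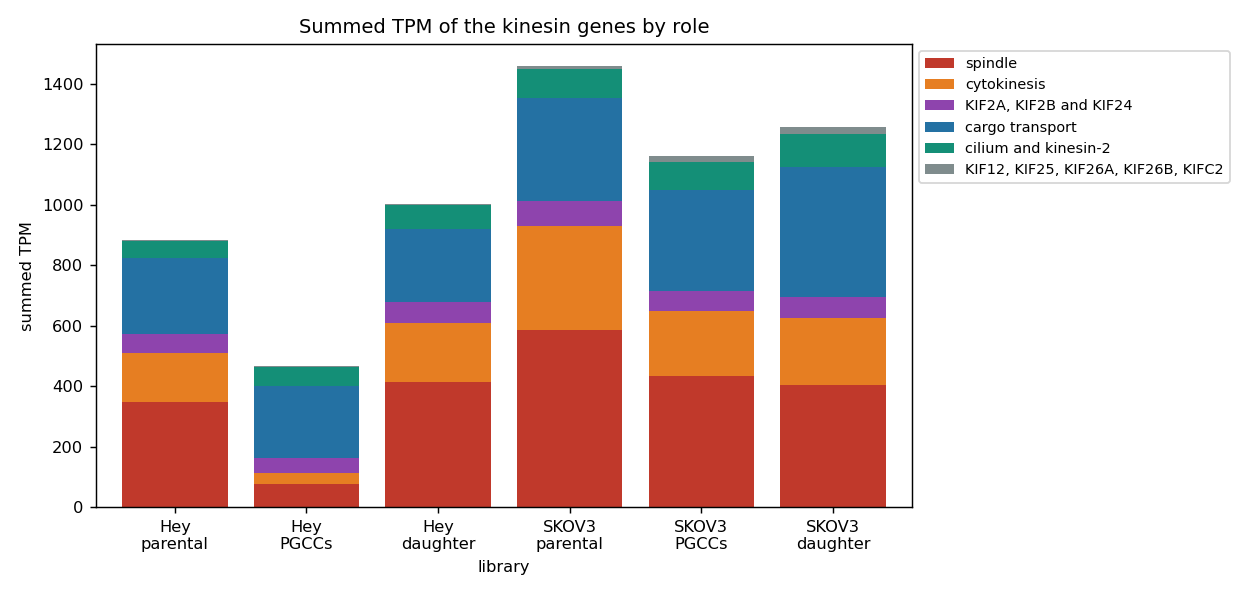
Summed TPM of the 42 kinesin genes in each of the 6 libraries, stacked by role, 1 library per bar. The spindle and cytokinesis blocks shrink from 510 to 112 TPM between Hey parental cells and PGCCs, and the cargo transport block stays between 237 and 251 TPM in Hey.

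With both lines as the repeats of each state, a limma fit over the 14988 genes called 0 kinesins at an adjusted p under 0.05 in any of the 3 comparisons of states. The fit had 2 residual degrees of freedom. For PGCCs against parental cells, 7 kinesins had an unadjusted limma p under 0.05, all lower: KIF11, KIF14, KIF15, KIF18A, KIF20B, KIF23 and KIF2C. They are 7 of 32 kinesins, beside 1.57% of all genes lower (235) and 1.16% higher (174) by the same unadjusted limma p. KIF11 had the smallest, with a difference of -1.67 (SE 0.44) and a limma p of 0.0064 before and 1 after adjustment. For daughter cells against PGCCs there were 5, all higher (KIF11, KIF14, KIF15, KIF18A and KIF23; smallest adjusted p 0.908), beside 3.08% of all genes higher (461) and 1.98% lower (297). For daughter against parental cells there were 0, beside 2.43% and 0.961% of all genes. Over all genes the fit called 1 higher and 2 lower for PGCCs against parental cells, 2 lower for daughter against parental cells, and 0 for daughter cells against PGCCs. Without the cell line term, 0 kinesins had an adjusted p under 0.05, and 3, 1 and 0 had an unadjusted p under 0.05 in PGCCs against parental cells, daughter cells against PGCCs and daughter against parental cells. The 3 were lower and the 1 higher, where 0.42% of all genes were lower and 0.587% higher in these comparisons. The fit used values that hold the SKOV3 trend on GC content, and it was not run with the trend removed. All of the 7 but KIF2C, and all of the 5, were among the 6 dividing-cell kinesins of lower GC content.

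Transcripts of the proteins these motors work with were counted alongside. Of 11 division partners, 11 were lower in Hey PGCCs (median -1.81) and 3 in SKOV3 PGCCs (median -0.86), where 5.22% and 4.96% of all measured genes were lower. With the GC and length trend removed these were 11 and 0. The 3 lower in both lines were CENPE, itself a kinetochore kinesin outside the symbol rule (-1.66 in Hey and -1.18 in SKOV3), HMMR, a spindle assembly factor (-2.08 and -1.47), and NDC80, which ties kinetochores to microtubules (-1.71 and -1.37). In daughter cells against parental cells, NDC80 and AURKA were higher in Hey (1.48 and 1.13) and lower in SKOV3 (-1.13 and -1.01), and RACGAP1, the partner of KIF23, was lower in SKOV3 (-1.08). Of all measured genes 6.31% were higher in Hey and 6.34% lower in SKOV3 there. In SKOV3 AURKA was at -0.99, just inside the threshold, without the trend. Against PGCCs all 11 were higher in Hey daughter cells, and ECT2 (1.22) and HMMR (1.32) were in SKOV3 daughter cells, though both were within 2-fold without that trend (0.57 and 0.71). Of all measured genes 9.95% were higher in that Hey comparison and 14.6% in that SKOV3 comparison.

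The proliferation markers, which are made in cycling cells, differed between the lines as well. MKI67, TOP2A, CCNB1 and CDK1 were all lower in Hey PGCCs, at -2.51, -2.59, -2.05 and -1.66. In SKOV3 PGCCs TOP2A (-1.77) and CDK1 (-1.87) were lower, while MKI67 and CCNB1 differed by -0.24 and -0.68. Without the GC and length trend TOP2A (-1.33) and CDK1 (-1.13) were still past the threshold there, with MKI67 at -0.44 and CCNB1 at -0.28. Of all measured genes 5.22% were lower in Hey PGCCs and 4.96% in SKOV3 PGCCs. The summed TPM of these markers was 676, 150 and 866 in Hey and 1628, 744 and 877 in SKOV3. In Hey the order of these sums over the 3 libraries was that of the dividing-cell kinesin sums. In SKOV3 both sums were lower in PGCCs than in parental cells. From PGCCs to daughter cells the marker sum was higher, while the kinesin sum was slightly lower and 0 of the 12 were called. TOP2A (1.13) and CDK1 (1.10) were past the threshold there, while MKI67 (-0.03) and CCNB1 (-0.79) were not. Of all measured genes 14.6% were higher in that comparison. With the GC and length trend removed, TOP2A was at 0.59, CDK1 at 0.50, MKI67 at -0.22 and CCNB1 at -1.14, so CCNB1 alone was past the threshold. The part of the markers in the kinesin values was not tested. The mitochondrial share was also higher in Hey PGCCs than in parental cells, and without mitochondrial genes the 12 kinesins were all lower there by a median of -1.91.

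Of the motors that take microtubules apart without walking, KIF24 had the pattern of the dividing-cell group in Hey. KIF24 works at the mother centriole, where it holds back the growth of a cilium. Its TPM was 2.74, 0.717 and 5.14 in Hey and 11.7, 11.0 and 9.13 in SKOV3. The difference in PGCCs was -1.12 in Hey and -0.08 in SKOV3, and Hey daughter cells were 1.84 above PGCCs. KIF2A, which works at spindle poles but is also made in cells that do not divide, was at 59.7, 50.4 and 63.4 TPM in Hey and at 69.8, 53.5 and 60.5 TPM in SKOV3. The PGCC library was the lowest of each line, but within 2-fold (-0.24 and -0.38). With the GC and length trend removed, these differences were -0.18 in Hey and 0.07 in SKOV3.

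The transport motors as a group were level in Hey, with a median of 0.13 over the 9 measured in PGCCs against parental cells. In SKOV3 PGCCs 1 of them was called, as higher, where 9.94% of all measured genes were higher. KIF5B, the heavy chain of conventional kinesin in most tissues, was the most abundant kinesin in 4 of the 6 libraries, with 125, 102 and 98.0 TPM in Hey and 180, 103 and 179 TPM in SKOV3. Its decrease in SKOV3 PGCCs (-0.80) was within 2-fold, and was -0.37 with the GC and length trend removed. KIF1C, a motor of integrin vesicles and of the Golgi, was at 52.8, 57.7 and 76.4 TPM in Hey and at 43.6, 82.1 and 52.7 TPM in SKOV3 (0.13 and 0.90 in PGCCs). Its SKOV3 PGCC difference was 0.33 with that trend removed. KIF13A, KIF1B and KIF21A lay between 11.8 and 41.0 TPM in all 6 libraries, within 2-fold in every comparison.

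KIFC3, a minus-end motor of the Golgi and of cell junctions, was higher in both treated SKOV3 libraries and level in Hey. It was at 21.7, 20.7 and 18.7 TPM in Hey and at 12.9, 40.6 and 57.9 TPM in SKOV3. SKOV3 PGCCs were 3.15-fold and daughter cells 4.50-fold above parental cells in TPM (log2 differences of 1.58 and 2.09). Its transcript has 64.07% GC, and after removal of the trend on GC and length the PGCC difference was 0.59 and that of daughter cells 1.67.

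KIF5C, the neuronal sister of KIF5B, was low everywhere except in SKOV3 daughter cells. KIF5C averaged 1 TPM or more only through that library, so its calls there rest on the value that let it pass the filter. Its TPM was 0.611, 1.62 and 0.557 in Hey and 0.160, 0.276 and 6.36 in SKOV3, a log2 difference of 2.66 from parental cells and of 2.53 from PGCCs in that line. KIF1A, KIF5A and KIF26A, which averaged under 1 TPM, also had their highest value in that library. KIF1A, a carrier of synaptic vesicle precursors, was listed at 0 in all 3 Hey libraries and was at 0.279, 0.349 and 5.30 TPM in SKOV3. KIF5A was at 0.224, 0.587 and 1.52 TPM in SKOV3 and at most 0.529 TPM in Hey. KIF26A reached 1.03 TPM in SKOV3 daughter cells and at most 0.0421 TPM in the other 5 libraries. Since SKOV3 daughter cells are 1 clone, what belongs to that clone and what to recovery cannot be told apart.

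KIF16B, which carries early endosomes, went the other way in Hey. It was at 1.89 and 2.74 TPM in Hey parental cells and PGCCs and at 0.00987 TPM in Hey daughter cells, a log2 difference of -1.52 from parental cells. In SKOV3 it was at 12.3, 7.93 and 9.36 TPM, within 2-fold throughout. This was the 1 kinesin called lower in Hey daughter cells against both other Hey libraries, and the library is again 1 clone.

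Of the 7 measured cilium motors and kinesin-2 subunits, 0 were called in Hey PGCCs, where 7.67% of all measured genes were higher and 5.22% lower. In SKOV3 PGCCs 1 was called, as higher, beside 9.94% of all measured genes. KIF7, which sits at the tip of the cilium and regulates Hedgehog signalling, was at 2.72, 1.75 and 1.67 TPM in Hey and at 1.67, 4.41 and 4.11 TPM in SKOV3, a difference in SKOV3 PGCCs of 1.02 that became -0.011 with the GC and length trend removed. KIF6 was at most 0.463 TPM in Hey and at 2.44, 4.76 and 6.22 TPM in SKOV3, with daughter cells 1.07 above parental cells, or 0.72 and within 2-fold with that trend removed. KIF3B, a kinesin-2 subunit that carries cargo along the cilium and the cytoplasm, was at 24.3, 27.9 and 42.8 TPM in Hey and at 28.4, 32.2 and 32.8 TPM in SKOV3, within 2-fold throughout.

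KIF12 separated the lines. It was listed at 0 in Hey parental and daughter cells and at 0.0233 TPM in Hey PGCCs, and was at 2.60, 8.01 and 11.4 TPM in SKOV3. Against the SKOV3 parental library PGCCs differed by 1.33 and daughter cells by 1.78, and by 0.38 and 1.46 with the GC and length trend removed. KIFC2 was highest in the PGCC library of each line, at 3.46 TPM in Hey and 9.77 TPM in SKOV3, within 2-fold of parental cells. Its log2 differences from parental cells were 0.59 in Hey PGCCs and 0.63 in SKOV3 PGCCs. Once that trend was subtracted, Hey PGCCs stood at 0.745 but SKOV3 PGCCs at -0.495, so the lines then differed in direction. The remaining measured kinesins (KIF13B, KIF27, KIF3A, KIF3C and KIF9) lay between 2.98 and 29.0 TPM and within 2-fold in all comparisons.

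**Figure D5:**
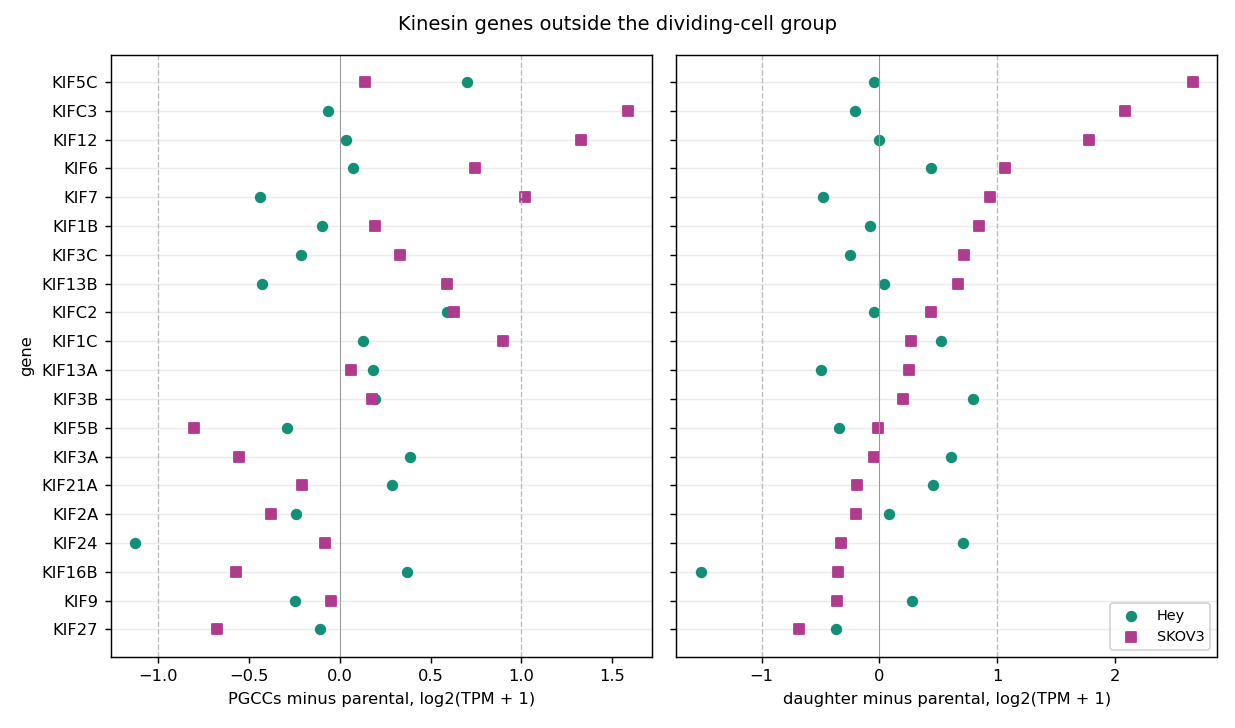
Differences in log2(TPM + 1) of the 20 measured kinesins outside the dividing-cell group, PGCCs (left) and daughter cells (right) against parental cells, with circles for Hey and squares for SKOV3 and dashed lines at 2-fold. KIF24 (PGCCs) and KIF16B (daughter cells) are the 2 Hey points past a dashed line, while KIFC3, KIF12 and KIF7 (PGCCs) and KIF5C, KIFC3, KIF12 and KIF6 (daughter cells) are the SKOV3 points past it.

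The remaining kinesins were at or near the floor of the table. KIF19, KIF25 and KIF2B were listed at 0 in all 6 libraries, and KIF17, KIF21B and KIF26B reached at most 1.58, 1.88 and 0.166 TPM. Antisense genes named after kinesins were also low, with KIF9-AS1 between 0.520 and 0.877 TPM, KIF1C-AS1 at most 0.292 TPM and KIF5C-AS1 at most 0.0875 TPM. Whether the strand of reads was used is not given in the sources used here.

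Of 11 light chains and adaptors that load cargo on transport kinesins, 0 were called in Hey PGCCs. There 7.67% of all measured genes were higher and 5.22% lower. In SKOV3 PGCCs 4 were higher and 1 lower, beside 9.94% and 4.96% of all measured genes. The higher ones were KLC2 and KLC4, light chains of conventional kinesin (1.09 and 1.32), MAPK8IP3, an adaptor of kinesin and dynein (1.29), and PLEKHM2, which links kinesin to lysosomes (1.53). The lower one was KIFAP3, the third subunit of kinesin-2 (-1.41). With the GC and length trend removed, 0 of the 11 passed the threshold in SKOV3 PGCCs, so these 5 calls, like those of the kinesins there, were lost with it. Against PGCCs, KIFAP3 was 1.31 higher in SKOV3 daughter cells, or 0.87 with the trend removed. Of 14 measured genes of cytoplasmic dynein and dynactin, the motor that walks the other way, DCTN2 (-1.05) and NDE1 (-1.38) were lower in Hey PGCCs and DCTN3 (1.29) was higher in SKOV3 PGCCs. Of all measured genes 5.22% were lower in Hey PGCCs and 9.94% higher in SKOV3 PGCCs. DYNC1H1, the dynein heavy chain, was higher in SKOV3 daughter cells than in parental cells (1.19), where 15.1% of all measured genes were. Against PGCCs, DCTN2 (1.01) and NDE1 (1.55) were higher in Hey daughter cells and DCTN3 was lower in SKOV3 daughter cells (-1.01). Of all measured genes 9.95% were higher and 9.25% lower in these respective comparisons. With the trend removed, DCTN2 and NDE1 in Hey PGCCs and NDE1 in Hey daughter cells were still past the threshold (-1.07, -1.31 and 1.37), and the other 4 were not.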

How the data were processed

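RNA of 6 libraries was sequenced, 1 for each state (parental, PGCC, daughter) of Hey and SKOV3. Per the labels and the study's methods, the authors trimmed reads with fastp, quantified them with Salmon 0.14.1 on hg38 and deposited TPM per gene symbol, without counts. The columns summed to between 911825 and 920497 TPM, so the depth and counting error are unknown. Which annotation release and which bias options Salmon used is not given in the sources used here.

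Differences of log2(TPM + 1) were computed within each line for genes averaging 1 TPM or more and called at 2-fold, without a p-value. limma 3.58.1 (R 4.3.3) was fitted to log2(TPM + 1) of the 14988 genes with terms for state and for cell line, eBayes with trend and Benjamini-Hochberg adjustment over all of them. GC content and length are those of the canonical transcript in GENCODE 44 (GRCh38), known for 13468 measured genes and all 32 measured kinesins. Lowess curves on both were fitted to every difference (fraction 0.3, 2 passes, statsmodels 0.14.6) and subtracted. Motifs were searched in RefSeq promoter windows, 250 bases before to 50 after the start. The fold calls, the trend removal and the limma fit were tested on simulated data, and the motif search was not. In those data both lines changed alike with little noise. The test thus does not show how many real changes the fit would miss here. Tables were handled in pandas 2.3.3 and numpy 2.4.6 under Python 3.11.15 and drawn with matplotlib 3.10.9.

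The text names every dividing-cell kinesin, every other kinesin past 2-fold within a line or averaging 20 TPM or more, and, by the rule, partner genes past 2-fold in both lines in the same direction. The other partner genes named were chosen after their values were seen. The members, the role lists and the partner lists were chosen with earlier results of these data known. A gene of the adaptor list is not reported here and was left out of its counts. Alternatives were a pseudocount of 0.1, all genes with a TPM above 0, median ratio scaling, mitochondrial genes left out, the GC and length trend removed, a 1.5-fold threshold, and limma without the cell line term or trend. The GC and length correction of the partner lists and of the count lower in both lines was added after the data were seen. A planned search of protein sequences was not run.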

Additional observations from a re-analysis of the deposited data

Results flagged for a closer look

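In 4 of the 32 kinesin genes averaging 1 TPM or more the lines differed in opposite directions in the same comparison, each by at least 1.5-fold on the log2(TPM + 1) scale. With 1 library per group, the difference between the lines was not tested. The share of all measured genes that met the same rule was not counted, so the count says nothing particular about kinesins. In daughter cells against parental cells, KIF20A was at 0.69 in Hey and -0.68 in SKOV3, and KIF4A at 0.63 in Hey and -0.63 in SKOV3. In daughter cells against PGCCs, KIFC1 was at 2.45 in Hey and -0.90 in SKOV3, and KIF5C at -0.75 in Hey and 2.53 in SKOV3. The first 3 are dividing-cell motors of the midzone, the chromosome arms and the spindle poles. With the GC and length trend removed, each of them came to lie just within 1.5-fold in 1 line. KIF20A was then at 0.574 and KIF4A at 0.575 in Hey, and KIFC1 at -0.584 in SKOV3. KIF5C was then at -0.87 in Hey and 2.195 in SKOV3. KIF5C is a neuronal motor whose value in SKOV3 rests on 1 clone at 6.36 TPM, and it averaged 1 TPM or more only through that library.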

How the results depend on the processing

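With 1 library per group no value has an error, and no library could be left out within a line. The replicate block of the limma fit is the cell line; without it 0 kinesins had an adjusted p under 0.05 in the 3 comparisons of states, as with it. The lower counts in Hey PGCCs and the higher counts in Hey daughter cells against PGCCs stayed within 1.5 times of 13 in all alternatives. With the GC and length trend removed, SKOV3 PGCCs had 0 kinesins higher and 0 lower and a dividing-cell median of -0.52, KIF7 turned from 1.02 to -0.011, and SKOV3 daughter cells against PGCCs had 3 higher and a median of -0.11; a trend over all genes is what this setting takes away. With median ratio scaling, SKOV3 daughter cells against PGCCs had 1 lower and a median of -0.029, and the median of all genes in SKOV3 daughter cells against parental cells went from 0.15 to 0. Leaving out mitochondrial genes put the all-gene median of Hey PGCCs at 0.11 in place of 0 and that of SKOV3 daughter cells against parental cells at 0.23. A pseudocount of 0.1 gave 1 higher in Hey PGCCs, 1 higher in Hey daughter cells against parental cells and 2 lower against PGCCs, and all genes with a TPM above 0 gave 2 higher in SKOV3 daughter cells against PGCCs. At 1.5-fold, Hey PGCCs had 2 higher, Hey daughter cells 5 higher against parental cells and 4 lower against PGCCs, SKOV3 PGCCs 7 higher and 9 lower, and SKOV3 daughter cells 8 higher and 9 lower against parental cells and 4 higher and 2 lower against PGCCs, since the threshold itself was lowered. The dividing-cell kinesins lower in SKOV3 PGCCs numbered 4 as reported, 5 without mitochondrial genes or with a pseudocount of 0.1, 6 with median ratios and 0 with the GC and length trend removed. Except where the setting's construction shows it, the cause was not tested. The kinesins lower in PGCCs of both lines went from 4 to 0 with the GC and length trend removed. Of 960 single-gene values over the pseudocount, the filter, median ratios, mitochondrial genes and the GC and length trend, 887 kept their direction and side of the threshold, 50 without a call moved, 9 lost and 13 gained a call, and 1 reversed. The 192 values under the filter could not change, since it leaves each gene's own difference as it was. With the GC and length trend removed, 152 values were kept, 30 moved, 7 lost and 2 gained a call, and 1 reversed.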
